A study of Mus musculus with 18 samples.

Results

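RNA of the tissue that the labels call HPF was compared with RNA of the prefrontal cortex (PFC) of Diversity Outbred mice. Animals of this stock descend from several inbred founder strains, and no pair of them shares a genotype. All 12 libraries of these tissues were used, of 18 in the series: 3 from high and 3 from low performers in HPF, and 3 from high and 3 from low performers in PFC. Performance refers to short-term memory, per the title of the series. The test behind it, the animals' age and sex and the borders of each dissection are not given in the sources used here, and no library carries a treatment or an engineered allele in the labels. The labels do not spell out HPF, so the tissue was checked below against genes that mark the hippocampus. They do not say how many animals each group holds either, so the spread behind each p-value is that among libraries, which may in part be technical.

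The hippocampus and the prefrontal cortex are both built around glutamatergic pyramidal neurons, but they are wired differently. In the hippocampus, granule cells of the dentate gyrus send mossy fibres to CA3, CA3 pyramidal cells project to CA1, and CA1 passes the signal to the subiculum and out of the region. The prefrontal cortex is a layered neocortex without such a chain: neurons of its upper layers connect cortical areas, layer 5 projects to subcortical targets, and layer 6 projects to the thalamus. The dentate gyrus also keeps making neurons in adult mice, which the neocortex does not do. Both regions take part in memory.

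Of 48440 genes in the deposited table, 18136 had a mean of at least 10 normalized counts over the 12 libraries and were tested, and 30304 lay below that minimum. Gm14567 was just inside it with a mean of 10.01, and Gm29325 was just outside with 9.999. A normalized count is a gene's count divided by a factor for its library. Differences are means of log2(normalized count + 1) in HPF minus those in PFC, ± their standard error, with high and low performers weighted equally. This scale understates the difference of low genes. A single signed value given for a gene is its log2 difference, negative where HPF is lower. Adjusted p-values come from limma with Benjamini-Hochberg adjustment over all 18136 genes, and a gene passed where its adjusted p was below 0.05. Ranges give the lowest and highest of 6 libraries per tissue. All values are from bulk tissue, where more cells of a type and more RNA per cell cannot be told apart.

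The libraries of each tissue stood together. On the leading principal component, which held 41.1% of the variance, the HPF libraries lay between 43.61 and 69.8 and the PFC libraries between -68.57 and -50.31. Depth, estimated from the worth of 1 read, was 76705451 to 88633852 reads in HPF and 41156227 to 48838302 in PFC, so low values carry less counting error in HPF. The names of all HPF libraries carry lane tokens other than that of all PFC libraries, so tissue and lane token cannot be told apart. In high performers the name numbers 44, 88 and 165 occur in both tissues, and libraries that share a number deviated together, with correlations of 0.565 to 0.619.

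Some libraries held more RNA of genes that mark neighbouring structures. Transthyretin (Ttr), the thyroxine carrier made in large amounts by the choroid plexus, was at 151267 normalized counts in HPF high performer 2. It was at 137823 in PFC high performer 1, 116924 in PFC low performer 2 and 68839 in PFC low performer 3, against 1553 to 7990 in the other 8 libraries. HPF high performer 2 also had the highest sum over 12 markers of thalamic neurons, 29853 normalized counts. PFC low performer 2 had the highest sum over 11 leptomeningeal markers, 128468, and over 20 myelin genes, 593262. These 4 libraries fell in both tissues. Counts without them are given for all genes, for most lists of regions and cell types and for some of the other lists.

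**Figure D1:**
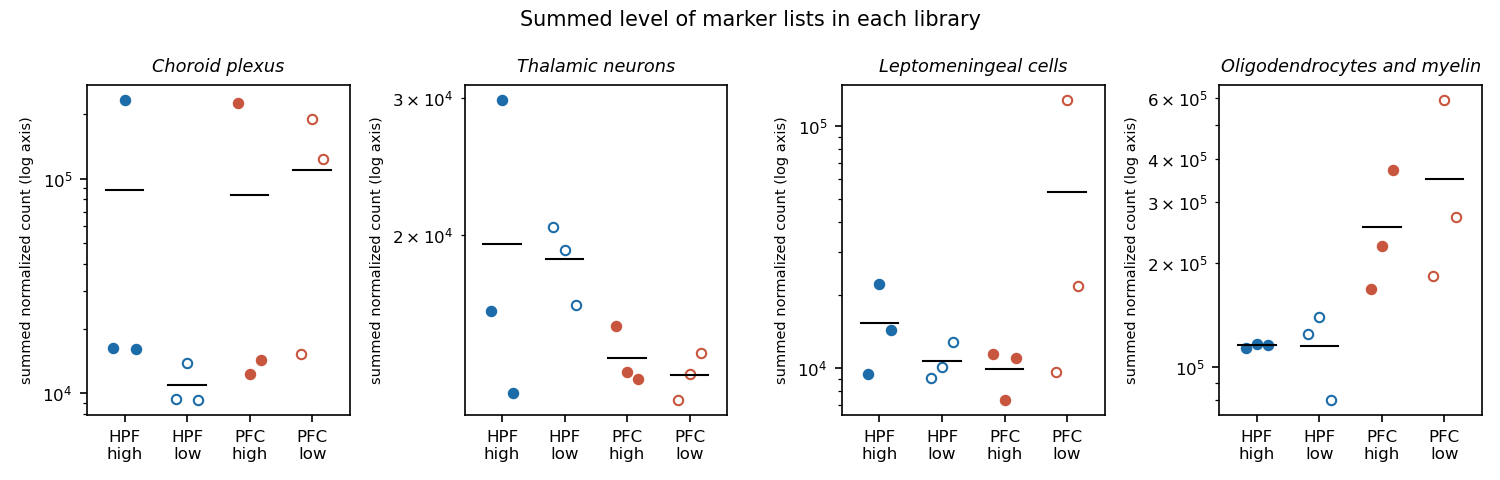
Summed normalized counts, on log axes, of the choroid plexus, thalamic, leptomeningeal and myelin lists in each library (filled points, high performers; open points, low performers; bars, group means). HPF high performer 2 is the highest point for the thalamic list at 29853, and PFC low performer 2 is the highest for the myelin list at 593262.

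HPF carried the markers of the hippocampus. Prox1 (ENSMUSG00000010175, GRCm38 chromosome 1, 190118035 to 190170714, minus strand) encodes the homeodomain transcription factor that specifies granule cells of the dentate gyrus. Its level was 10147 to 14743 normalized counts (median 12754) in HPF and 603 to 1448 (median 819.7) in PFC. The lowest HPF library was far above the highest PFC library, the mean was 14.8-fold higher in HPF, and the log2 difference was 3.94 ± 0.16 (adjusted p = 1.53e-08). Iyd (ENSMUSG00000019762, GRCm38 chromosome 10, 3540240 to 3554877, plus strand), iodotyrosine deiodinase and a marker of CA3 pyramidal cells, was at 59.7 to 521 normalized counts (median 231) in HPF and 0.901 to 5.14 (median 2.84) in PFC. Its libraries did not overlap either, with a log2 difference of 5.59 ± 0.30 (adjusted p = 9.59e-08). Fibcd1 (ENSMUSG00000026841, GRCm38 chromosome 2, 31813290 to 31846005, minus strand), a chitin-binding membrane protein that marks CA1 pyramidal cells, was at 1036 to 7333 normalized counts (median 3529) in HPF and 205 to 417 (median 238) in PFC. Here too every HPF library exceeded every PFC library, and the mean was 14.5-fold higher (log2 difference 3.50 ± 0.20, adjusted p = 1.68e-07).

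**Figure D2:**
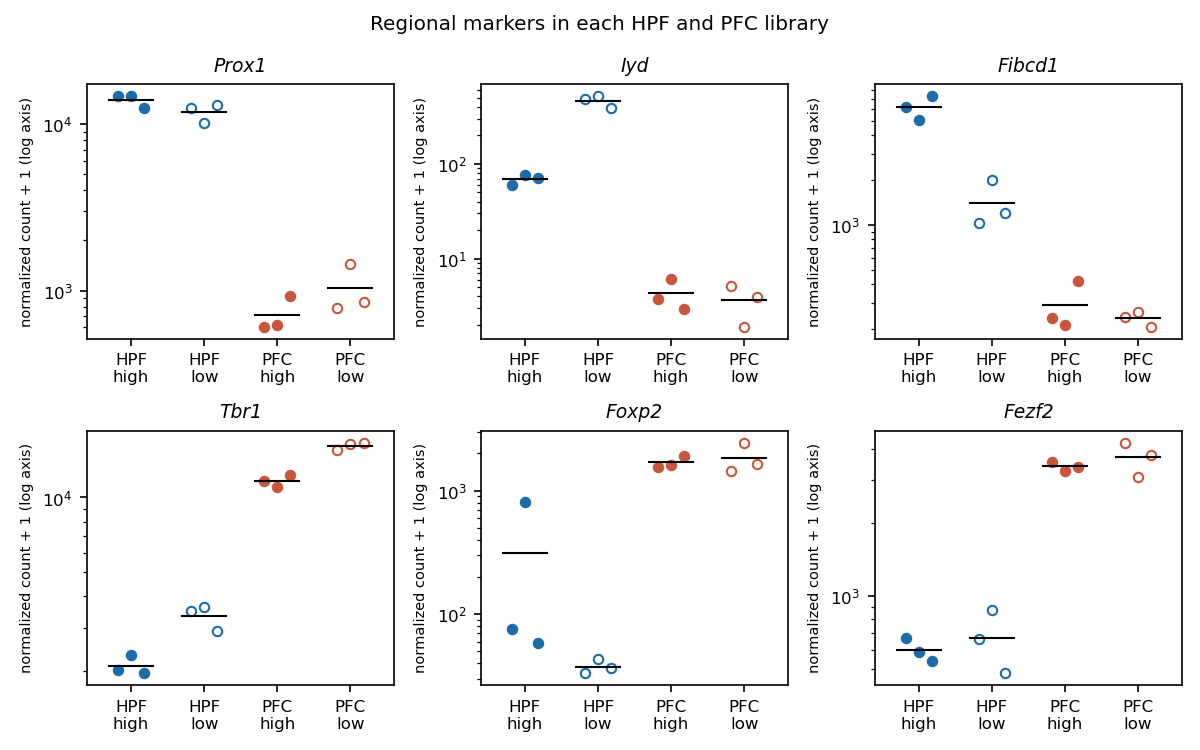
Normalized counts + 1, on log axes, of hippocampal markers (Prox1, Iyd, Fibcd1) and neocortical transcription factors (Tbr1, Foxp2, Fezf2) in each library (filled points, high performers; open points, low performers; bars, group means). Prox1 lies at 10147 to 14743 normalized counts in HPF and at 603 to 1448 in PFC, and Tbr1 shows the opposite order.

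The promoters of a granule cell gene, a CA3 gene and a gene of deep cortical layers are shown because Prox1, Iyd and Tbr1 carry the regional contrast. Each window runs from 250 bases before to 50 after a RefSeq transcript start (GRCm38.p6 table of promoters), 5′ to 3′ on the gene's strand. Capitals mark CAGATG, an E-box of the kind that NeuroD-type proneural factors bind, or its reverse complement CATCTG in the windows of Prox1 and Iyd, and TAATTA, a core of homeodomain sites, in that of Tbr1. Of 32851 windows in the table, 17.2% held CAGATG on either strand and 5.3% held TAATTA. Prox1 has 2 windows in the table. The one shown lies just before the gene's GENCODE bounds given above, and the other, chr1:190169466-190169765, holds neither motif. The bases after neither start were found in a GENCODE transcript of Prox1.
Prox1, minus strand of chr1:190170778-190171077: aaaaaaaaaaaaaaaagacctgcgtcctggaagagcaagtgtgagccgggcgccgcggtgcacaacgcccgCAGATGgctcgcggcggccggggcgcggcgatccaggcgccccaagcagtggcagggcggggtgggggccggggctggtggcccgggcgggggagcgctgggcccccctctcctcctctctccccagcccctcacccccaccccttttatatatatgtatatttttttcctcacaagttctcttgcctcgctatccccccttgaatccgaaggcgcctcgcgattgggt
Iyd, plus strand of chr10:3540024-3540323: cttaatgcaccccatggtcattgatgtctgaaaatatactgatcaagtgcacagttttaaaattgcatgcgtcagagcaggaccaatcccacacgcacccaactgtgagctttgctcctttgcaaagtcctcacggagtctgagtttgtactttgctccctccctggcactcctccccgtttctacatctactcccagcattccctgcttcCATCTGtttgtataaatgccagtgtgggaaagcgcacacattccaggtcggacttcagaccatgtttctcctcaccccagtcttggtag
Tbr1, plus strand of chr2:61804203-61804502: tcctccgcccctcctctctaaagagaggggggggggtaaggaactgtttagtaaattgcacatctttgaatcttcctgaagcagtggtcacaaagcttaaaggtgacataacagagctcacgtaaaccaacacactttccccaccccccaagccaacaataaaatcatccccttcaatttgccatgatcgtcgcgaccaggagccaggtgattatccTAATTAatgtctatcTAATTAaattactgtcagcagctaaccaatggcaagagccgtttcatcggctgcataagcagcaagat
CAGATG was found in 17.5% of the windows of genes at least 2-fold higher in HPF and in 16.0% of those of genes at least 2-fold higher in PFC, beside 12.5% for all genes tested. TAATTA was found in 4.3% of both sets and in 3.0% for all genes tested. The T-box core AGGTGTGA, of the kind that Tbr1 itself binds, was in 0.7% and 0.8%. The shares in the HPF and PFC sets lay close together, and a match describes the letters of a window, not binding.

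Across the transcriptome, 8148 of 18136 genes passed (44.9%), 3931 higher in HPF (21.7%) and 4217 lower (23.3%). Differences of at least 2-fold were fewer, with 2453 genes (13.5%), 1154 higher in HPF (6.36%) and 1299 lower (7.16%). These shares of all genes tested are the ones to set beside the counts of each list below. The groups of 6 libraries did not overlap for 3977 genes (21.9%). Differences of at least 5 on the log2 scale were seen in 25 genes higher in HPF and 10 lower. Without the 4 libraries high in Ttr, 6721 genes passed and 2488 of them were at least 2-fold different, 1251 higher and 1237 lower. With columns scaled to equal totals, the split among genes that passed was 4961 higher and 3402 lower, against 3931 and 4217 as deposited, so small differences in either direction depend on the scaling. That scaling moved the median log2 difference over all genes from 0.01 to 0.10. Under quantile normalization the split was 4286 and 3918.

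**Figure D3:**
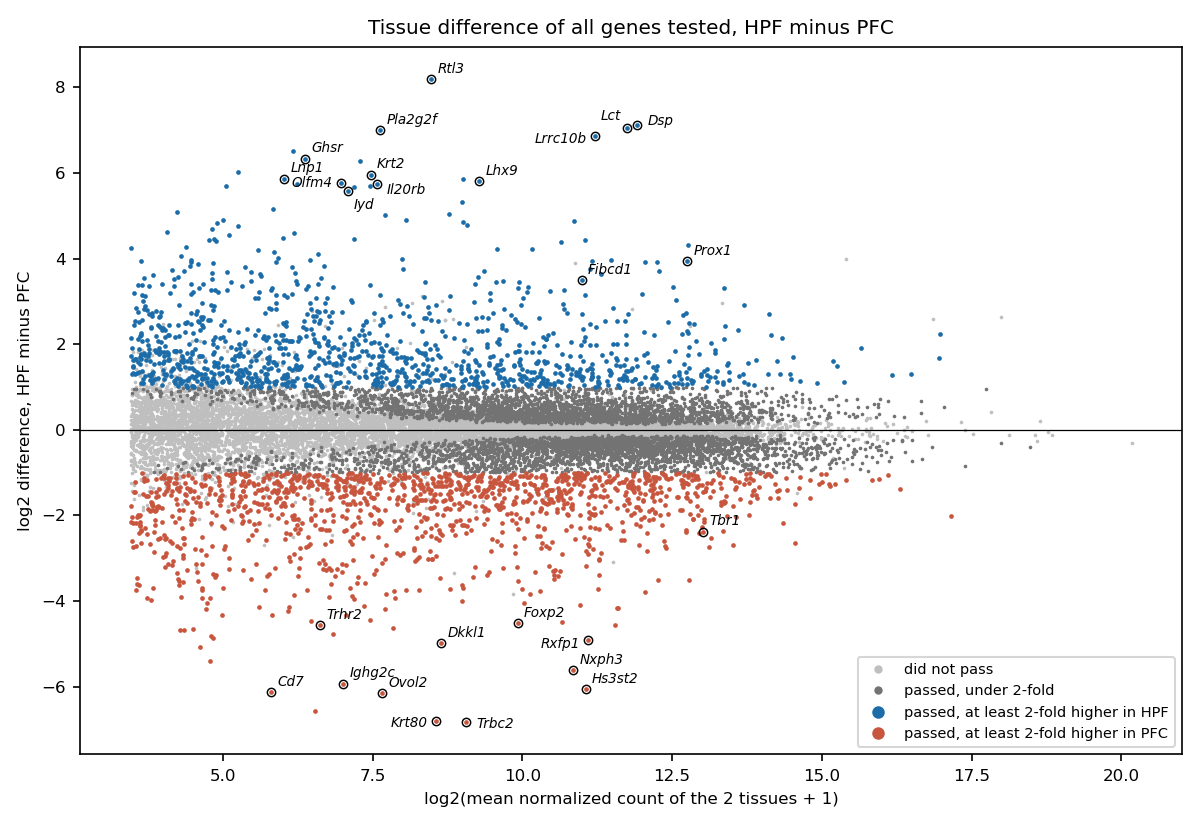
Log2 difference (HPF minus PFC) against log2 of the mean normalized count + 1 for all genes tested; blue and red points passed with at least a 2-fold difference, and circled genes are named in the text. Rtl3 at 8.19 and Trbc2 at -6.83 mark the extremes of the named genes, and Prox1 combines a high level with a difference of 3.94.

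The genes that led on the HPF side mixed granule cell markers with genes better known from epithelia. The leading genes of both tissues were taken from those that passed without overlap between tissues. That they passed and did not overlap therefore follows from the choice. Rtl3, a protein derived from a retrotransposon Gag gene, was at 531 to 1068 normalized counts (median 647) in HPF and 0 to 9.15 (median 1.24) in PFC. It was close to 0 in PFC, and its log2 difference was 8.19 ± 0.53 (adjusted p = 4.36e-07). Dsp encodes desmoplakin, a desmosome protein of epithelia that also marks granule cells, and was at 6102 to 8498 normalized counts (median 8258) in HPF and 7.14 to 238 (median 74.9) in PFC. Lct, the intestinal lactase that likewise marks granule cells, was at 2922 to 9437 normalized counts (median 7094) in HPF and 14.4 to 479 (median 32.7) in PFC. Both were higher in every HPF library, with log2 differences of 7.13 ± 0.79 (adjusted p = 2.29e-05) for Dsp and 7.05 ± 0.57 (adjusted p = 2.22e-06) for Lct. The PFC maximum of Lct was PFC high performer 3, well above the other PFC libraries. Lrrc10b, a leucine-rich repeat protein, was at 3324 to 6490.3 normalized counts (median 4775) in HPF and 28.6 to 60.6 (median 34.2) in PFC, which is a 117-fold difference of means (log2 difference 6.86 ± 0.22, adjusted p = 5.14e-09).

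Receptors and secreted proteins made up much of the rest of that list. Ghsr, the receptor for ghrelin, the hunger hormone of the stomach, was at 78.5 to 268 normalized counts (median 157) in HPF and 0 to 3.93 (median 0.618) in PFC, a log2 difference of 6.33 ± 0.45 (adjusted p = 8.5e-07). Il20rb, a subunit of receptors for interleukins of the IL-10 family, was at 291 to 467 normalized counts (median 374) in HPF and 2.98 to 15.3 (median 4.48) in PFC. Its log2 difference was 5.74. Pla2g2f, a secreted phospholipase A2, differed by 7.01, Olfm4, a secreted olfactomedin glycoprotein, by 5.77, Krt2, a keratin, by 5.96, and Lnp1 by 5.87. Lhx9, a LIM homeodomain factor of the developing forebrain and thalamus, was at 531 to 1671 normalized counts (median 1337) in HPF and 8.59 to 35.2 (median 22.0) in PFC. Its highest HPF value, 1671, was in HPF low performer 1 (log2 difference 5.80 ± 0.28, adjusted p = 4.67e-08). The sum over thalamic markers was 20465 in that library and 29853 in HPF high performer 2, in which Lhx9 was at 1228. The part of neighbouring tissue in Lhx9 was not tested. The 11 leading HPF genes and the 11 leading PFC genes reported here passed with the same direction in each alternative tried.

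The genes that led on the PFC side mixed neocortical regulators with genes better known from other organs. Trbc2, a constant segment of the T cell receptor beta chain, was at 4.12 to 25.0 normalized counts (median 6.46) in HPF and 512 to 1413 (median 1133) in PFC. The PFC level was high in all 6 libraries, and the log2 difference was -6.83 ± 0.35 (adjusted p = 8.38e-08); a near-identical copy, Trbc1, could share its reads. Cd7, a surface protein of T cells, was at 0 to 3.06 normalized counts (median 0.279) in HPF and 85.7 to 134 (median 106) in PFC, and Ighg2c, an immunoglobulin heavy-chain constant segment, was at 0 to 11.4 normalized counts (median 2.68) in HPF and 90.2 to 328 (median 274) in PFC. The log2 differences of these lymphocyte genes were -6.12 and -5.93. Krt80, a keratin, was at 3.26 to 8.06 normalized counts (median 4.74) in HPF and 377 to 1459 (median 577) in PFC, a log2 difference of -6.80 ± 0.35 (adjusted p = 8.42e-08). Ovol2, a zinc-finger repressor of epithelial cells, was at 0 to 11.9 normalized counts (median 7.65) in HPF and 293 to 487 (median 404) in PFC, with a difference of -6.14.

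Neuronal genes filled the rest of the PFC list. Hs3st2, a sulfotransferase that modifies heparan sulfate in neurons, was at 27.1 to 107 normalized counts (median 65.3) in HPF and 2901 to 6007 (median 3949.8) in PFC, 64.5-fold higher in PFC (log2 difference -6.06 ± 0.21, adjusted p = 6.28e-09). Nxph3, a neurexophilin that binds alpha-neurexins at synapses, was at 38.2 to 211 normalized counts (median 62.9) in HPF and 2353 to 5095 (median 3426) in PFC. Rxfp1, the relaxin receptor, was at 56.7 to 284 normalized counts (median 127) in HPF and 2573 to 7452 (median 3712) in PFC. Their log2 differences were -5.61 and -4.91. Dkkl1, a secreted dickkopf-like protein, differed by -4.99 and Trhr2, a receptor for thyrotropin-releasing hormone, by -4.56. Foxp2, a forkhead factor of layer 6 neurons, was at 32.2 to 807 normalized counts (median 49.8) in HPF and 1446 to 2446 (median 1611) in PFC. Its HPF maximum was HPF high performer 2, and the log2 difference over all libraries was -4.52 ± 0.53 (adjusted p = 3.57e-05).

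Genes of the dentate gyrus were higher in HPF almost as a block. Of 12 granule cell genes, 11 passed, all higher in HPF, 10 of them at least 2-fold, and their median log2 difference was 2.74. Over all genes tested the median was 0.01, and 21.7% were higher. C1ql2, a secreted complement-like protein that gathers kainate receptors at mossy fibre synapses, was at 2962 to 5234 normalized counts (median 3839) in HPF and 84.2 to 303 (median 189.5) in PFC. Its libraries did not overlap (log2 difference 4.44 ± 0.26, adjusted p = 2.24e-07). Tdo2, the enzyme that opens the ring of tryptophan, was higher by 4.85, Plk5, a polo-like kinase of neurons, by 3.28, Dock10, an activator of small GTPases, by 2.20, Stxbp6, a regulator of SNARE complexes, by 2.02 and Trpc6, a cation channel, by 1.98. Without the 4 libraries high in Ttr, 9 of the 12 passed, all higher in HPF.

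Mossy fibre and neurogenesis genes followed with exceptions, where 21.7% of all genes tested were higher and 23.3% lower. Of 8 genes of mossy cells and mossy fibres, 4 were higher in HPF and 1 was lower, with a median of 0.69, or 3 and 1 without the 4 libraries high in Ttr. Synpr, a synaptic vesicle protein abundant in mossy fibre terminals, was at 5854 to 16237 normalized counts (median 12084) in HPF and 1632 to 3106 (median 2369) in PFC (log2 difference 2.27 ± 0.18, adjusted p = 2.23e-06). Of 13 genes of adult neurogenesis, 9 were higher in HPF and 3 lower, with a median of 1.14, or 7 and 3 without those libraries. Neurod1, the proneural factor of newborn granule cells, was at 1503 to 2019.9 normalized counts (median 1769) in HPF and 104 to 349.8 (median 266) in PFC, and every HPF library was above every PFC library (log2 difference 2.92 ± 0.28, adjusted p = 9.02e-06). Hopx, which marks radial stem cells of the dentate gyrus, was higher by 2.04, Sox11, a factor of immature neurons, by 0.91, Eomes, a factor of intermediate progenitors, by 2.44 at a low level, and Mki67, a marker of dividing cells, by 1.16. The 3 lower genes included Stmn1, a tubulin-binding protein, at 6647 to 9476 normalized counts (median 7369) in HPF and 29907 to 36931 (median 34483) in PFC, and doublecortin (Dcx), the microtubule protein used as a marker of immature neurons, at 608 to 982 normalized counts (median 808) in HPF and 1207 to 2056 (median 1443) in PFC. Both were lower in every HPF library (log2 differences -2.17 ± 0.09 and -0.89 ± 0.15, adjusted p = 1.88e-08 and 0.000486). In low performers alone, where 3 libraries per tissue were left, 3 of the neurogenesis genes were higher and 4 lower.

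Pyramidal cell genes of the CA fields were less uniform. The shares of all genes tested were 21.7% higher in HPF and 23.3% lower. Of 7 CA1 genes tested, 4 were higher in HPF and 1 lower, and of 16 CA2 and CA3 genes, 8 were higher and 5 lower, with medians of 1.27 and 0.72. Spink8, a protease inhibitor and CA1 marker, was at 113 to 761 normalized counts (median 550.2) in HPF and 10.2 to 79.8 (median 34.2) in PFC, with no overlap (log2 difference 3.75 ± 0.47, adjusted p = 6.03e-05). Wfs1, the endoplasmic reticulum protein wolframin and a CA1 marker, was at 2009 to 24581 normalized counts (median 6670.5) in HPF and 1708 to 5149.9 (median 2688) in PFC, and the tissues overlapped (log2 difference 1.27 ± 0.28, adjusted p = 0.00333). Without the 4 libraries high in Ttr, the count of higher CA1 genes was 2, the CA2 and CA3 counts were 6 and 5, and Wfs1 had an adjusted p of 0.0793. Mpped1, a metallophosphoesterase also found in the neocortex, was the CA1 gene lower in HPF, at 2146 to 11994 normalized counts (median 5077) in HPF and 13681 to 17455 (median 15603) in PFC (log2 difference -1.70 ± 0.16, adjusted p = 7.05e-06). Rgs14, a suppressor of plasticity in CA2 neurons, was at 3649 to 7272 normalized counts (median 5122) in HPF and 1436 to 1807 (median 1649.7) in PFC (log2 difference 1.64 ± 0.11, adjusted p = 5.75e-07). St18, a zinc-finger factor, was higher by 2.81, Bok, a relative of BCL2, by 1.44 and Nectin3, an adhesion protein, by 1.36. The list also held genes that were lower in HPF, such as Kcnq5, a potassium channel subunit, at -1.67, Coch, cochlin, at -2.06, and Pcp4, a calmodulin regulator that the deep cortical layers express too, at -0.76. Among 10 genes of the subiculum and the long axis of the hippocampus, 3 were higher and 2 lower. The share of this list that passed was near that of all genes tested (44.9%), and so was its share of lower genes (23.3% of all genes). Ndst4, a heparan sulfate enzyme, was at 1303 to 2994 normalized counts (median 1717) in HPF and 73.2 to 358 (median 223) in PFC (log2 difference 3.33 ± 0.29, adjusted p = 3.55e-06). Of those 2 counts, the higher one was 5 without PFC low performer 2, and the counts were 5 and 0 without the 4 libraries high in Ttr. The lower one was also 0 without HPF high performer 3 or without PFC high performer 3 and 1 without PFC high performer 1, PFC high performer 2 or PFC low performer 3.

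Markers of deep cortical layers were lower in HPF with few exceptions. Of 12 layer 5 genes, 10 were lower in HPF, 9 of them at least 2-fold, and 1 was higher, with a median of -1.78. Of 13 layer 6 genes, 10 were lower, 8 at least 2-fold, and 0 higher, with a median of -2.84; among all genes tested, 23.3% were lower. Without the 4 libraries high in Ttr these counts of lower genes were 9 and 10. Tbr1 (ENSMUSG00000035033, GRCm38 chromosome 2, 61802930 to 61814114, plus strand), the T-box factor that specifies layer 6 neurons, was at 1959.6 to 3613 normalized counts (median 2614) in HPF and 11066 to 16624 (median 13892) in PFC. It was 5.11-fold higher in PFC with no overlap (log2 difference -2.38 ± 0.07, adjusted p = 2.37e-09). Garnl3, a GTPase-activating domain protein, was at 604 to 1053 normalized counts (median 769) in HPF and 7184 to 10139 (median 9169.7) in PFC and had among the smallest p-values of all genes (log2 difference -3.52 ± 0.09, adjusted p = 1.91e-09). Fezf2, the factor that specifies subcortically projecting layer 5 neurons, was at 477 to 873 normalized counts (median 624) in HPF and 3083 to 4266 (median 3471) in PFC (log2 difference -2.51 ± 0.14, adjusted p = 1.14e-07). None of the 3 overlapped, and none was close to 0 in HPF.

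Other deep-layer genes covered a wide range of sizes. Tshz2, a zinc-finger factor of layer 5, differed by -4.17, Ccn2, a matricellular protein of the deepest layer, by -4.09, Nxph4, another neurexophilin, by -3.59, and Cplx3, a complexin of the same deepest layer, by -3.53. Ntsr1, the neurotensin receptor used to reach layer 6 cells that project to the thalamus, differed by -3.46, Deptor, an inhibitor of mTOR, by -2.88, Syt6, a synaptotagmin, by -2.84, Pde1a, a phosphodiesterase, by -1.98 and Etv1, an ETS factor of layer 5, by -1.87. The layer 5 gene that was higher in HPF was Bcl11b, a zinc-finger factor that granule cells and CA1 cells also express, at 8686 to 13815 normalized counts (median 11306) in HPF and 4923 to 6795 (median 5604) in PFC (log2 difference 0.95 ± 0.07, adjusted p = 1.56e-06).

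Genes used as markers of upper layers split, where 23.3% of all genes tested were lower in HPF and 21.7% higher. Of 12 tested, 6 were lower in HPF and 3 higher, with the same counts when the 4 libraries high in Ttr were left out. Mef2c, an activity-regulated factor of cortical neurons, was at 9214 to 12581 normalized counts (median 11388) in HPF and 33586 to 42215 (median 36702) in PFC (log2 difference -1.74 ± 0.08, adjusted p = 3.73e-08). Lamp5, a membrane protein of upper-layer and neurogliaform cells, differed by -1.60 and Cux2, a homeodomain factor of layers above layer 5, by -1.43. Calb1, the calcium-binding protein calbindin of granule cells, was at 8240.3 to 14632 normalized counts (median 11776) in HPF and 773 to 2745 (median 1981) in PFC, with no overlap (log2 difference 2.72 ± 0.21, adjusted p = 1.53e-06). Scnn1a, a sodium channel subunit, was higher in HPF by 2.87 and Rasgrf2, a Ras activator, by 1.10.

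Transcription factors of the forebrain separated the tissues in both directions. Of 39 tested, 20 were lower in HPF and 13 higher, 12 and 6 of them at least 2-fold. The shares of all genes tested were 23.3% and 21.7%, and 7.16% and 6.36% at least 2-fold. On the HPF side, Bhlhe22, a basic helix-loop-helix repressor, was at 6362 to 11289 normalized counts (median 9396) in HPF and 357 to 935 (median 596) in PFC (log2 difference 3.92 ± 0.18, adjusted p = 3.43e-08). Zbtb20, the zinc-finger factor required for CA1 identity, was at 11343 to 13657 normalized counts (median 12718) in HPF and 1385 to 3566 (median 2464) in PFC (log2 difference 2.47 ± 0.19, adjusted p = 1.83e-06). Neither overlapped between tissues. Neurod2, a proneural factor of mature excitatory neurons, was higher in HPF by 1.26 and Emx2, a homeodomain factor that patterns the medial forebrain, by 1.16. On the PFC side, Tshz3, a zinc-finger factor of deep-layer neurons, was at 501 to 739.7 normalized counts (median 637) in HPF and 2497 to 3278 (median 3026) in PFC (log2 difference -2.25 ± 0.08, adjusted p = 8.13e-09). Satb1, a chromatin organizer, was lower in HPF at -1.87 and Meis2, a TALE homeodomain factor, at -3.04.

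**Figure D4:**
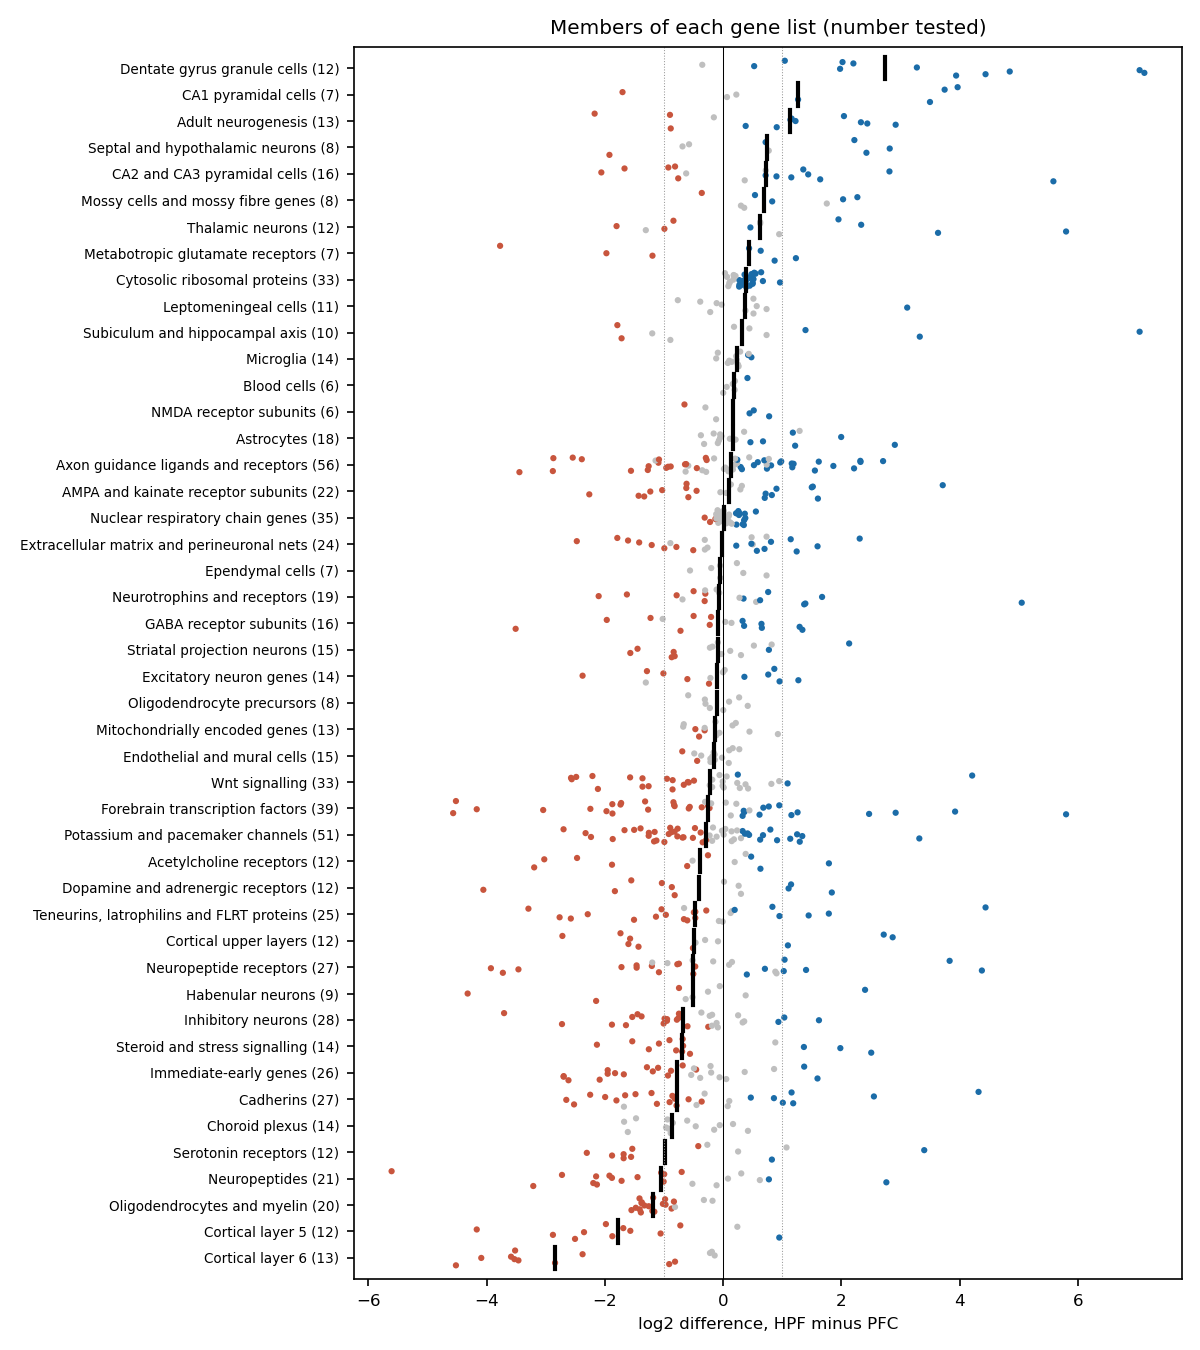
Log2 difference (HPF minus PFC) of every tested member of 46 gene lists (blue, passed and higher in HPF; red, passed and lower; grey, did not pass; black bar, list median; dotted lines, 2-fold). Dentate gyrus granule cells have the highest median at 2.74 and cortical layer 6 the lowest at -2.84.

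Ionotropic glutamate receptors differed in subunit makeup more than in a shared direction. These receptors carry fast excitation, and their subunits and auxiliary proteins set their kinetics. Of 22 AMPA and kainate receptor genes, 8 were higher in HPF and 9 lower, beside 21.7% and 23.3% of all genes tested. Gria1, the AMPA receptor subunit tied to hippocampal plasticity, was at 53380.3 to 59528 normalized counts (median 55912) in HPF and 16090.5 to 21099.8 (median 18097) in PFC (log2 difference 1.60 ± 0.08, adjusted p = 4.04e-08). Gria2, the subunit that blocks calcium entry, was higher by 0.70, whereas Gria3 and Gria4 were lower at -0.59 and -1.33. Among auxiliary proteins, Shisa6, which slows desensitization, was at 7789 to 11359 normalized counts (median 9031) in HPF and 521 to 1054 (median 651) in PFC, 12.9-fold higher in HPF (log2 difference 3.72 ± 0.13, adjusted p = 6.28e-09). Cnih2, a cornichon, was higher by 1.52 and Cacng8, a transmembrane AMPA receptor regulatory protein, by 1.50. The kainate receptor subunit Grik3 was at 2063 to 3269 normalized counts (median 2956) in HPF and 11642 to 14798 (median 13748) in PFC (log2 difference -2.26 ± 0.10, adjusted p = 2.53e-08) and Grik1 differed by -1.43, both lower in HPF.

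NMDA receptor genes moved less. The shares of all genes tested were 21.7% higher in HPF and 23.3% lower. Of 6 tested, 3 were higher in HPF, none by 2-fold, and 1 was lower, or 2 without HPF high performer 2, without PFC low performer 2 or without the 4 libraries high in Ttr. Grin2a was at 13735 to 22728 normalized counts (median 15868) in HPF and 7176 to 14109 (median 9121) in PFC, with overlap between the tissues (log2 difference 0.78 ± 0.11, adjusted p = 0.000109). All 7 metabotropic glutamate receptors passed, 4 higher and 3 lower. Grm8, a presynaptic autoreceptor, was at 94.9 to 281 normalized counts (median 174) in HPF and 1779.8 to 3121 (median 2330.4) in PFC, 13.0-fold higher in PFC (log2 difference -3.77 ± 0.23, adjusted p = 2.69e-07). Grm3 was lower in HPF at -1.19 and Grm4 at -1.97, and Grm2, the receptor of mossy fibre terminals, was higher by 1.23. Of the calcium-dependent kinases of excitatory synapses, Camk2b was at 92311 to 114764 normalized counts (median 105116) in HPF and 39859 to 47697 (median 42693) in PFC (log2 difference 1.27 ± 0.06, adjusted p = 5.27e-08) and Camk2a was higher in HPF by 0.96.

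GABA receptor subunits showed a similar exchange, with 6 higher and 7 lower of 16 tested, beside 21.7% and 23.3% of all genes tested. Gabra3 was at 641 to 2254 normalized counts (median 1111) in HPF and 9705 to 15929 (median 13131) in PFC, 10.4-fold higher in PFC (log2 difference -3.51 ± 0.13, adjusted p = 1.11e-08). Gabra5, the subunit of extrasynaptic receptors enriched in hippocampus, was at 10433 to 12429 normalized counts (median 11758) in HPF and 4004 to 5476 (median 4709) in PFC (log2 difference 1.29 ± 0.07, adjusted p = 7.87e-08). Gabra2 was higher in HPF by 1.34, and Gabrg3 was lower at -1.97. None of these 4 subunits overlapped between the tissues.

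Genes of inhibitory interneurons were lower in HPF more often than higher. Of 28 tested, 16 were lower, 8 at least 2-fold, and 3 higher, with a median of -0.68, where 23.3% of all genes tested were lower, 7.16% at least 2-fold, and 21.7% higher; without the 4 libraries high in Ttr, 13 were lower and 3 higher. Vip, the peptide of interneurons that inhibit other interneurons, was at 189 to 552 normalized counts (median 363) in HPF and 1922 to 3500.4 (median 2091) in PFC (log2 difference -2.73 ± 0.22, adjusted p = 1.96e-06). Erbb4, the neuregulin receptor of interneurons, was at 1596 to 2619 normalized counts (median 2206) in HPF and 4611 to 6771 (median 5430.1) in PFC (log2 difference -1.38 ± 0.12, adjusted p = 4.97e-06). Parvalbumin (Pvalb), the calcium buffer of fast-spiking basket cells, was at 582 to 971 normalized counts (median 712) in HPF and 1376 to 2975 (median 2344) in PFC, and somatostatin (Sst), the peptide of dendrite-targeting cells, at 557 to 6514 normalized counts (median 3138) in HPF and 7363 to 11833 (median 9220.4) in PFC. Both were lower in every HPF library, at -1.64 and -1.88. The exceptions included Nos1, neuronal nitric oxide synthase, higher in HPF by 1.04, and Adarb2, an RNA-editing-related protein of interneurons from the caudal ganglionic eminence, higher by 1.62. Genes of principal neurons had no common direction, with 5 of 14 higher and 5 lower, beside 21.7% and 23.3% of all genes tested.

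Neuropeptides followed the interneuron genes, with which they share Vip and other members. Of 21 peptides and related ligands, 14 were lower in HPF, 12 at least 2-fold, and 2 higher, beside 23.3%, 7.16% and 21.7% of all genes tested. Adcyap1, the peptide PACAP, was at 24.5 to 256 normalized counts (median 115) in HPF and 399.7 to 1779.7 (median 1117) in PFC (log2 difference -3.21 ± 0.45, adjusted p = 0.000152). Crh, corticotropin-releasing hormone, was at 22.5 to 54.2 normalized counts (median 47.7) in HPF and 134 to 284 (median 167) in PFC (log2 difference -2.13 ± 0.23, adjusted p = 2.02e-05). The genes higher in HPF were Nmb, neuromedin B, at 47.0 to 346 normalized counts (median 217) in HPF and 12.5 to 41.6 (median 27.8) in PFC (log2 difference 2.76 ± 0.44, adjusted p = 0.000385), and Penk, the enkephalin precursor, higher by 0.77 with overlap between the tissues. Penk passed over both performance groups and had an adjusted p of 0.465 in low performers alone.

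Of 27 peptide receptors tested, 7 were higher and 12 lower, beside 21.7% and 23.3% of all genes tested. The share of higher receptors was close to that of all genes. The higher ones included the neuropeptide Y receptors Npy1r, Npy2r and Npy5r. Npy2r, the presynaptic receptor of hippocampal excitatory terminals, was at 1977 to 4601 normalized counts (median 3116) in HPF and 104 to 189 (median 139.6) in PFC, 21.5-fold higher (log2 difference 4.38 ± 0.19, adjusted p = 2.07e-08), and Npy5r and Npy1r were higher by 1.40 and 1.03. The lower ones included the cholecystokinin receptor Cckbr and the opioid receptors Oprk1 and Oprd1. Cckbr, the brain cholecystokinin receptor, was at 142 to 654 normalized counts (median 342) in HPF and 3635 to 6366 (median 4097) in PFC, 12.1-fold higher in PFC (log2 difference -3.73 ± 0.20, adjusted p = 8.85e-08). Oprk1, the kappa opioid receptor, differed by -3.93 and Oprd1, the delta opioid receptor, by -1.72, with no overlap for either.

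Receptors for serotonin, dopamine and noradrenaline differed in both directions. Of 12 serotonin receptors tested, 7 were lower and 2 higher, beside 23.3% and 21.7% of all genes tested. Htr4 was at 897 to 1392 normalized counts (median 1003) in HPF and 65.3 to 137 (median 102) in PFC, 10.5-fold higher in HPF (log2 difference 3.40 ± 0.14, adjusted p = 1.77e-08), and Htr1a, the inhibitory receptor of pyramidal cells, was higher by 0.83. Htr5a was at 469 to 728 normalized counts (median 577) in HPF and 1522 to 1894 (median 1670.0) in PFC (log2 difference -1.54 ± 0.09, adjusted p = 2.69e-07) and Htr2a, the receptor that hallucinogens act on, at 261 to 564 normalized counts (median 341) in HPF and 878 to 1755 (median 1201) in PFC (log2 difference -1.68 ± 0.17, adjusted p = 1.12e-05). Of 12 dopamine and adrenergic receptors, 6 were lower and 3 higher, the latter a share close to the 21.7% of all genes. Adra1b was at 83.6 to 285 normalized counts (median 101) in HPF and 1478 to 2408 (median 1879.5) in PFC, 15.3-fold higher in PFC (log2 difference -4.06 ± 0.25, adjusted p = 2.69e-07), and Adra1a differed by -1.83. The D1-type dopamine receptors had opposite directions, with Drd5 at 661 to 1036 normalized counts (median 736) in HPF and 151 to 381 (median 227) in PFC and higher in HPF by 1.84, and Drd1 lower at -0.82, though Drd1 had an adjusted p of 0.0693 without the 4 libraries high in Ttr.

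Of 12 acetylcholine receptor genes, 6 were lower in HPF and 3 higher, beside 23.3% and 21.7% of all genes tested. The share of higher genes was close to that of all genes. Chrna4, a subunit of high-affinity nicotinic receptors, was at 301 to 1557 normalized counts (median 465) in HPF and 3865 to 4924 (median 4138) in PFC, with its HPF maximum in HPF high performer 2 (log2 difference -3.03 ± 0.26, adjusted p = 3.54e-06). Chrm2, an inhibitory muscarinic receptor, was lower at -3.20. Chrm1, the excitatory muscarinic receptor of pyramidal cells, was at 14961 to 18173 normalized counts (median 16925) in HPF and 9917 to 12957 (median 10492) in PFC and was higher in HPF by only 0.63, yet its libraries did not overlap (adjusted p = 1.11e-05).

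The receptor for stress hormones held one of the smallest p-values. The hippocampus is rich in mineralocorticoid receptors, which bind corticosterone with high affinity. Nr3c2, which encodes this receptor, was at 10743 to 13855 normalized counts (median 11819.5) in HPF and 1793 to 2435 (median 2019) in PFC, 5.67-fold higher in HPF (log2 difference 2.51 ± 0.07, adjusted p = 2.37e-09). Hsd11b1, the enzyme that regenerates active corticosterone inside cells, was at 1769.7 to 2949 normalized counts (median 2413) in HPF and 524 to 780.2 (median 593) in PFC (log2 difference 1.98 ± 0.13, adjusted p = 4.05e-07). Fkbp5, a co-chaperone that these receptors induce, was higher by 1.37. These 3 were the only higher genes of 14 tested in the list, and 10 were lower, beside 21.7% and 23.3% of all genes tested. The share of higher genes was close to that of all genes. The glucocorticoid receptor Nr3c1 was at 4274 to 6531 normalized counts (median 4684) in HPF and 6979 to 7892 (median 7285) in PFC, lower in every HPF library (log2 difference -0.56 ± 0.07, adjusted p = 6.32e-05).

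Growth factors of the neurotrophin and related families were higher about as often as lower, with 7 and 6 of 19. Of all genes tested, 21.7% were higher and 23.3% lower. Ntf3, neurotrophin-3, was at 756 to 1084 normalized counts (median 817) in HPF and 18.3 to 31.0 (median 26.0) in PFC, 34.2-fold higher in HPF (log2 difference 5.05 ± 0.17, adjusted p = 5.57e-09). Bdnf, the activity-regulated neurotrophin, was at 2577 to 5401 normalized counts (median 4169.6) in HPF and 627 to 2979 (median 1674) in PFC, with overlap between the tissues (log2 difference 1.37 ± 0.25, adjusted p = 0.000907). Receptors for factors of the GDNF family were exchanged, with Gfra1 higher in HPF by 1.67 and Gfra2 lower at -2.11. Nrg1, the neuregulin that binds Erbb4, was at 188 to 263 normalized counts (median 194) in HPF and 585 to 832 (median 644) in PFC (log2 difference -1.63 ± 0.12, adjusted p = 8.76e-07).

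Guidance and adhesion genes, which set and keep connections between neurons, differed in both directions. Of 56 axon guidance ligands and receptors, 20 were higher in HPF and 18 lower, beside 21.7% and 23.3% of all genes tested. Among Eph receptors, Epha7 was at 19144 to 22853 normalized counts (median 20427) in HPF and 2346 to 5399 (median 4516) in PFC (log2 difference 2.32 ± 0.15, adjusted p = 3.76e-07), and Epha6 and Epha4 were higher by 2.71 and 1.62. The ephrin ligands Efna5 and Efnb2 were lower in HPF. Efna5 was at 172 to 308 normalized counts (median 221) in HPF and 1397 to 1920.0 (median 1667) in PFC (log2 difference -2.87 ± 0.08, adjusted p = 2.37e-09) and Efnb2 at 465 to 931 normalized counts (median 671) in HPF and 3087 to 4524 (median 3771) in PFC (log2 difference -2.54 ± 0.09, adjusted p = 6.28e-09). Nrp2, a semaphorin co-receptor, was higher in HPF by 2.22, Slit1, a repulsive ligand, by 1.87, and Sema3a, a secreted semaphorin, was lower at -3.45.

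Of 27 cadherins, 15 were lower in HPF and 7 higher, beside 23.3% and 21.7% of all genes tested. The share of higher cadherins was close to that of all genes. Both cadherins with the smallest p-values were protocadherins. Pcdh20 was at 9276 to 16264 normalized counts (median 12829.7) in HPF and 568 to 732 (median 668) in PFC, 20.3-fold higher in HPF (log2 difference 4.32 ± 0.13, adjusted p = 2.37e-09), and Pcdh10 was at 4761 to 5458 normalized counts (median 5001) in HPF and 14449 to 17752 (median 16058) in PFC (log2 difference -1.66 ± 0.06, adjusted p = 1.09e-08). Pcdh8 was higher by 2.55 and Cdh8 by 1.19, and Cdh13 was lower at -1.80. Of 25 teneurins, latrophilins, FLRT proteins and other synaptic organizers, 14 were lower and 6 higher, the latter a share close to the 21.7% of all genes. Flrt1 was at 199.5 to 469 normalized counts (median 341) in HPF and 2001 to 2562 (median 2082) in PFC (log2 difference -2.77 ± 0.10, adjusted p = 8.13e-09), Lrrtm3, a postsynaptic organizer, was lower at -2.29, and its relative Lrrtm4 was higher by 1.79. Cbln2, a secreted bridge between neurexins and their partners, was lower at -3.29. Wnt pathway genes were lower more often than higher, with 16 and 3 of 33, beside 23.3% and 21.7% of all genes tested. Dkk3, a secreted dickkopf protein, was at 10955 to 20130.2 normalized counts (median 13513) in HPF and 29881 to 43234 (median 36579) in PFC (log2 difference -1.36 ± 0.09, adjusted p = 6.32e-07), and Lgr6, a receptor for R-spondins, was at 273 to 1938 normalized counts (median 1678) in HPF and 53.0 to 92.4 (median 64.9) in PFC and higher in HPF (log2 difference 4.21 ± 0.40, adjusted p = 8.1e-06). Without PFC low performer 2, 5 of the Wnt genes were higher, and without the 4 libraries high in Ttr 5 were higher and 11 lower.

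Potassium and pacemaker channels, which set how neurons fire, were lower in HPF for 26 of 51 genes and higher for 13. Of all genes tested 23.3% were lower and 21.7% higher, and the share of higher channels was close to the latter. Kcnk3, a two-pore leak channel, was at 380.0 to 601 normalized counts (median 395) in HPF and 2019.5 to 2336 (median 2181) in PFC (log2 difference -2.33 ± 0.10, adjusted p = 1.75e-08). Kcnt1, a sodium-activated channel, was lower at -2.70 and Kcnh7, a channel of the ERG type, at -2.24. Kcng2, a modulatory subunit, was higher in HPF by 3.32, Kcnip2, a partner of A-type channels, by 1.34, and Kcnj6, an inward rectifier opened by G proteins, was at 2450.0 to 3189 normalized counts (median 2833) in HPF and 1020.4 to 1379 (median 1182) in PFC (log2 difference 1.25 ± 0.07, adjusted p = 8.38e-08). Extracellular matrix genes were split evenly, with 9 of 24 higher and 8 lower, and 5 lower without the 4 libraries high in Ttr. Col5a1, a fibrillar collagen, was at 259.5 to 434 normalized counts (median 323) in HPF and 789 to 2996 (median 2579) in PFC (log2 difference -2.48 ± 0.29, adjusted p = 3.42e-05), and Spock3, a proteoglycan, was higher by 0.81.

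Immediate-early genes, whose transcription follows strong firing or other stimuli at once, were lower in HPF more often than higher. Of 26 tested, 15 were lower, 11 at least 2-fold, and 2 higher, with a median of -0.78. Of all genes tested, 23.3% were lower, 7.16% at least 2-fold lower, and 21.7% higher. Without the 4 libraries high in Ttr, PFC low performers kept only low performer 1, in which the summed level of the list was highest. Counts of that fit are therefore not given for this list. Egr1 was at 2021 to 3559.6 normalized counts (median 2786) in HPF and 9429 to 45085 (median 16274) in PFC (log2 difference -2.70 ± 0.20, adjusted p = 1.07e-06), and Fos at 152 to 603 normalized counts (median 225) in HPF and 645 to 6786 (median 1169) in PFC (log2 difference -2.62 ± 0.39, adjusted p = 0.000236). Neither gene overlapped between the tissues. The PFC values spread more than the HPF values and divided by performance: Egr1 was at 9429 to 11271 in high and 21277 to 45085 in low performers, and Fos at 645 to 752 and 1586 to 6786. The summed level of the list was 49452 to 64249 in HPF, 66297 to 73245 in PFC high performers and 91891 to 206578 in PFC low performers. Nr4a1 was lower at -1.83, Npas4 at -1.95, and Arc, whose RNA travels to active synapses, at -1.68 with overlap between the tissues. Homer1 was lower at -1.29. Jun was an exception, at 6080.4 to 9733 normalized counts (median 8633) in HPF and 1880.5 to 4253 (median 2723) in PFC and higher in every HPF library (log2 difference 1.60 ± 0.16, adjusted p = 9.21e-06). How soon after death each tissue was taken is not given in the sources used here, and its part in this result was not tested.

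Myelin genes were lower in HPF. Of 20 oligodendrocyte and myelin genes, 17 were lower, 13 at least 2-fold, and 0 higher, with a median of -1.19, beside 23.3% lower and 7.16% at least 2-fold lower of all genes tested. The count was 16 without the 4 libraries high in Ttr. The summed level of the list was 80162 to 139660 in HPF and 168297 to 593262 in PFC. Mbp, myelin basic protein, was at 30619.8 to 53284 normalized counts (median 40241) in HPF and 60471 to 246801 (median 99239) in PFC (log2 difference -1.39 ± 0.28, adjusted p = 0.00176). Mag, an adhesion protein of the inner myelin layer, was at 1818 to 3208 normalized counts (median 2483) in HPF and 4202 to 18335 (median 6602) in PFC (log2 difference -1.55 ± 0.30, adjusted p = 0.00137), and Fa2h, which makes myelin lipids, at 469 to 731 normalized counts (median 659) in HPF and 967 to 4044 (median 1470.2) in PFC (log2 difference -1.38 ± 0.25, adjusted p = 0.000906). PFC low performer 2 held the highest sum, and without it and the other 3 libraries high in Ttr 16 of the 20 were lower. The 8 markers of oligodendrocyte precursors gave 0 genes that passed, and the one with the smallest p, the proteoglycan Cspg4, was at 465 to 776 normalized counts (median 655) in HPF and 646 to 816 (median 763) in PFC (log2 difference -0.22 ± 0.10, adjusted p = 0.0882). One precursor gene was higher without HPF high performer 2, and 1 was lower without PFC high performer 2 or PFC low performer 1.

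Of 18 astrocyte genes, 6 were higher in HPF and 0 lower, or 1 lower without HPF high performer 2 or HPF high performer 3, and 8 were higher without the 4 libraries high in Ttr. A smaller share of this list passed (33.3%) than of all genes tested (44.9%). Gfap, the filament protein that hippocampal astrocytes make in larger amounts than most cortical ones, was at 14221 to 37436 normalized counts (median 19125) in HPF and 1052 to 8333 (median 2576) in PFC (log2 difference 2.91 ± 0.46, adjusted p = 0.000364). Agt, angiotensinogen, was at 719 to 2107 normalized counts (median 772) in HPF and 164 to 358 (median 262) in PFC (log2 difference 2.00 ± 0.23, adjusted p = 3.07e-05), and Aqp4, the water channel of astrocyte endfeet, at 6956 to 15805 normalized counts (median 8808) in HPF and 2895 to 5278 (median 4269.6) in PFC (log2 difference 1.22 ± 0.16, adjusted p = 7.37e-05). None of the 3 overlapped between tissues. Microglial genes differed little, with 2 of 14 higher, or 3 without the 4 libraries high in Ttr. That count was 7 without HPF high performer 2 and 1 without HPF high performer 1, HPF high performer 3, HPF low performer 3, PFC high performer 1, PFC high performer 2, PFC low performer 1 or PFC low performer 3. Of 15 endothelial and mural genes, 3 were lower, all under 2-fold, and that count was 0 without the 4 libraries high in Ttr and 1 without HPF high performer 1, HPF high performer 2, HPF low performer 1, PFC high performer 2, PFC low performer 2 or PFC low performer 3. Of 6 blood cell genes 1 was higher in HPF, and 0 without the 4 libraries high in Ttr. Over all 12 libraries, the microglial, the endothelial and mural, and the blood cell lists each had a smaller share passing than all genes tested (44.9%). These counts therefore do not set the lists apart from the other genes.

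Markers of neighbouring structures were checked for tissue that a dissection could include. Of 14 choroid plexus genes and 7 ependymal genes, 0 passed in either direction, and 1 of 11 leptomeningeal genes did. The choroid plexus sum was 9300 to 233607 in HPF and 12283 to 224240 in PFC. Enpp2, the enzyme autotaxin that choroid plexus and oligodendrocytes make, was at 3914 to 64093 normalized counts (median 6887) in HPF and 9843 to 69036 (median 27484) in PFC (log2 difference -1.47 ± 0.68, adjusted p = 0.1). It passed without HPF high performer 2 (adjusted p = 0.0159) and without PFC low performer 1 (adjusted p = 0.0432), the choroid plexus list then had 1 lower gene, and with the name number as a block Enpp2 had an adjusted p of 0.0339. Without the 4 libraries high in Ttr, 5 choroid plexus genes were higher in HPF and 1 was lower, and 1 ependymal and 3 leptomeningeal genes were higher. Lum, a proteoglycan of the meninges, was at 256 to 1303 normalized counts (median 652) in HPF and 28.7 to 598 (median 42.2) in PFC (log2 difference 3.11 ± 0.66, adjusted p = 0.0024), and without PFC low performer 2 the number of higher leptomeningeal genes was 5 and that of higher ependymal genes 1. Of 15 striatal genes, 5 were lower and 2 higher, and the share that passed (46.7%) was close to that of all genes (44.9%). Gng7, a G protein subunit also used outside the striatum, was at 13088 to 23531 normalized counts (median 16715) in HPF and 3460.4 to 4389.9 (median 3898) in PFC (log2 difference 2.13 ± 0.10, adjusted p = 5.31e-08), and Tac1, the precursor of substance P, was lower at -1.45.

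Of 12 thalamic genes, 5 were higher in HPF and 3 lower, beside 21.7% and 23.3% of all genes tested. Prkcd, a protein kinase C of many thalamic neurons, was at 822 to 8681 normalized counts (median 4926) in HPF and 199 to 500.4 (median 252) in PFC, and every HPF library was above every PFC library (log2 difference 3.64 ± 0.31, adjusted p = 3.65e-06). Within HPF, Prkcd was at 822 to 3780 in high and 6071 to 8681 in low performers, the same order as the CA3 marker Iyd. Tcf7l2, a defining factor of thalamic neurons, was at 151 to 2984 normalized counts (median 265) in HPF and 108 to 427 (median 174) in PFC and did not pass (adjusted p = 0.153). Within HPF it had the reverse order, at 283 to 2984 in high and 151 to 248 in low performers. Its HPF maximum, like that of Gbx2 at 10.6 to 188 and Slc17a6 at 132 to 3954 in HPF, was HPF high performer 2. Slc17a6, a vesicular glutamate transporter of subcortical neurons, passed as lower in HPF without that library (log2 difference -1.88) and with the name number as a block (adjusted p = 0.0460). The share of habenular genes that passed (44.4%) was close to that of all genes tested (44.9%). Of 9 habenular genes, 3 were lower and 1 higher, with Chrnb3, a nicotinic subunit, at 6.12 to 33.0 normalized counts (median 9.14) in HPF and 119.6 to 381 (median 253) in PFC (log2 difference -4.32 ± 0.36, adjusted p = 3.12e-06) and Tac2, the neurokinin B precursor, lower at -2.15. The count of higher habenular genes was 0 without HPF high performer 2, any of the 3 HPF low performers, PFC high performer 1, PFC high performer 3, PFC low performer 2 or PFC low performer 3, and also without the 4 libraries high in Ttr. Of 8 septal and hypothalamic genes, 4 were higher and 1 lower: Pmch, melanin-concentrating hormone, was at 31.5 to 139 normalized counts (median 118) in HPF and 7.74 to 21.1 (median 10.5) in PFC, and Nkx2-1, a factor of ventral forebrain, at 11.2 to 48.3 normalized counts (median 27.9) in HPF and 1.38 to 7.68 (median 5.43) in PFC, both at low levels (log2 differences 2.82 ± 0.35 and 2.22 ± 0.41, adjusted p = 5.54e-05 and 0.00103). The higher count was 2 without HPF high performer 1, HPF low performer 3 or PFC high performer 1. The part of neighbouring tissue in the other results was not tested beyond the fits without the 4 libraries.

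Genes of protein synthesis and respiration differed by small amounts. Of 33 cytosolic ribosomal protein genes, 24 were higher in HPF and 0 lower, none by 2-fold, with a median of 0.39. Rpl22 was at 4669 to 5491 normalized counts (median 4942) in HPF and 2999.7 to 4234 (median 3491) in PFC (log2 difference 0.50 ± 0.07, adjusted p = 0.000101). In high performers alone 11 were higher, and under equal column totals and under quantile normalization 30 were. Nuclear genes of the respiratory chain gave 11 higher and 3 lower of 35, a share passing (40.0%) near that of all genes (44.9%), and the directions were not shared by the performance groups: in high performers alone 1 was higher and 9 were lower, and in low performers alone 16 were higher and 0 lower. Of 13 genes encoded by the mitochondrial genome, 3 were lower, all under 2-fold, led by mt-Nd6 at 38893 to 74684 normalized counts (median 46138) in HPF and 47793 to 93374 (median 75841) in PFC (log2 difference -0.47 ± 0.14, adjusted p = 0.0196). Leaving out the 4 libraries high in Ttr gave 1 higher and 1 lower. The count of lower genes was 1 without HPF high performer 2, HPF low performer 1, PFC high performer 1, PFC high performer 2, PFC low performer 1 or PFC low performer 3. The share of this list that passed was 23.1%, beside 44.9% of all genes tested. Under equal column totals 1 was higher and 1 lower, in low performers alone 10 were lower, and in high performers alone 1 was higher and 0 lower. The mitochondrial share of all normalized counts was 5.246 to 5.589% in PFC high performers and 8.248 to 8.786% in PFC low performers. It was 6.514 to 8.629% in HPF high performers and 4.663 to 6.245% in HPF low performers. The share thus moved with performance within both tissues but in opposite directions, with low performers higher in PFC and lower in HPF.

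The tissue difference was then compared between performance groups. In high performers 5643 genes passed (31.1%) and in low performers 6949 (38.3%), and 3694 passed in both, 3554 with the same sign and 140 with opposite signs. These are 65.5% of the calls in high performers and 53.2% of those in low performers. A test of the interaction, the tissue difference in high performers minus that in low performers, passed for 1174 genes (6.47%). This count varied widely: it was 2165 with the name number as a block, 380 without PFC high performer 2, 382 without HPF low performer 1, 452 without PFC low performer 3, 471 without HPF high performer 3, 563 without PFC high performer 3 and 693 without HPF low performer 2. It was 3 without the 4 libraries high in Ttr, a fit in which PFC low performers kept 1 library that was assumed to vary like the others.

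**Figure D5:**
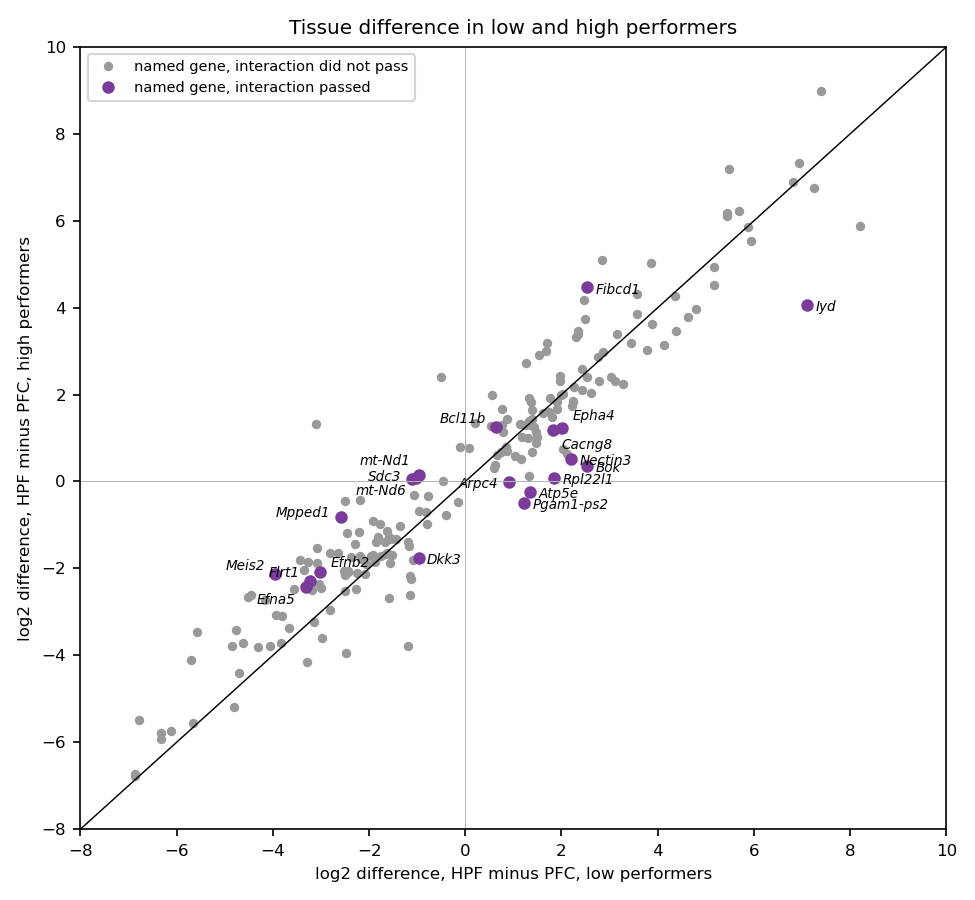
Log2 difference (HPF minus PFC) in high performers against that in low performers for the 209 named genes, with the line of equality; purple points passed the interaction test. Iyd lies at 4.07 in high and 7.11 in low performers, and Prox1 lies at 4.31 and 3.58.

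The interactions included markers of hippocampal subfields. Fibcd1 was at 5064 to 7333 normalized counts in HPF high performers and 1036 to 1994 in HPF low performers, while Iyd had the reverse order, with 59.7 to 74.8 and 388 to 521. Neither set of 3 libraries overlapped the other. The tissue difference of Fibcd1 was 4.47 in high and 2.53 in low performers (interaction adjusted p = 0.0209), and that of Iyd was 4.07 and 7.11 (interaction adjusted p = 0.0179). The CA3 genes Bok and Nectin3 followed Iyd. Bok differed between tissues by 0.35 in high and 2.53 in low performers (interaction adjusted p = 0.0202). Nectin3 differed by 0.51 and 2.20 (interaction adjusted p = 0.0207). Some other list members did not separate the groups. St18 of the CA2 and CA3 list was at 2469 to 2994 in HPF high and 2440 to 3399 in HPF low performers. Spink8 of the CA1 list was at 434 to 723 and 113 to 761. Mpped1, which CA1 cells share with the neocortex, followed Fibcd1, with -0.82 against -2.58 (interaction adjusted p = 0.0146). The granule cell gene Prox1 did not pass this test, with 4.31 and 3.58 (interaction adjusted p = 0.196). The summed level of the CA1 list was 29285 to 51373 in HPF high and 7530 to 13553 in HPF low performers. That of the CA2 and CA3 list was 23497 to 30311 and 39321 to 51401, and that of the granule cell list 70046 to 75747 and 53740 to 74988. In PFC these sums were 17921 to 25018, 33724 to 38630 and 13034 to 16370. Only the granule cell sum was thus higher in every HPF library than in every PFC library. The share of each subfield in the dissected pieces is not given in the sources used here, and performance and subfield makeup cannot be told apart in these libraries.

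The smallest p-values for the interaction belonged to genes whose PFC libraries differed by performance. Rpl22l1, a paralog of a ribosomal protein, differed between tissues by 0.08 in high and 1.84 in low performers (interaction adjusted p = 0.00104). Its HPF libraries covered 2017 to 2833 and its PFC libraries 606 to 2663 normalized counts. Sdc3, a heparan sulfate proteoglycan, differed by 0.07 and -1.11 (interaction adjusted p = 0.00104), Atp5e, a small subunit of ATP synthase, by -0.24 and 1.35 (interaction adjusted p = 0.00199), and Arpc4, a subunit of the actin-nucleating Arp2/3 complex, by -0.01 and 0.91 (interaction adjusted p = 0.00199). For these 4 genes the 3 libraries of PFC low performers stood apart from the other 9. The fifth, Pgam1-ps2, is a pseudogene whose reads could belong to its parent gene. In PFC the names of high and low performer libraries have different styles, and in HPF the letters in the names differ between these groups. The labels do not say what the styles and letters stand for, so performance and whatever they record cannot be told apart.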

How the data were processed

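RNA was sequenced from stranded mRNA libraries, per the labels' protocols. The submitters' processing notes name STAR, Salmon and DESeq2 without versions or roles, and genome build, annotation, settings and use of strand are not given in the sources used here. In 1 table the authors deposited normalized counts (a signal scaled between libraries) for 48440 genes in 18 libraries, whose totals were 50828589 to 54605913 in HPF and 55030280 to 59634490 in PFC. Only 27.09 to 59.97% of low values were whole multiples of 1 read within 0.02, so reads were not recovered, depth is an estimate and no count test was run.

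Gene identifiers were matched to GENCODE M21 (GRCm38), in which 48058 (99.2%) were found. Values were analysed as log2(normalized count + 1) with limma 3.58.1 in R 4.3.3, in a fit of 4 group means over 12 libraries with a mean-variance trend. The test is two-sided, with Benjamini-Hochberg adjustment over 18136 genes with a mean of at least 10. A difference of at least 2-fold is a log2 difference of at least 1 in size. The fit was tested on simulated data. Tables and figures were made with Python 3.11.15, pandas 2.3.3, numpy 2.4.6 and matplotlib 3.10.9.

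Named genes were Prox1, Iyd and Fibcd1, the 12 largest differences in each direction without overlap and with a mean of at least 100 in the higher tissue, the 2 members of each list with the smallest p, the 5 interactions with the smallest p, and further list members as examples. Some genes that this rule takes are not reported here. The groups of genes and the 46 lists were chosen with earlier results of these data known, and their counts were not tested against chance. The lists share members. The name numbers pair the libraries of high performers: same-numbered libraries correlated at 0.565, 0.619 and 0.586 in their deviations from the group means, and all other pairs at -0.377 to -0.188. Deviations from a group's mean cancel within the group, so the negative values of the other pairs follow from the positive ones. The replicate numbers follow accession order and do not match them. Low performers share no name number. Alternatives were other scalings, pseudocounts, minimums, blocks and subsets of libraries. The 6 libraries of another tissue entered 1 alternative fit only.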

Additional observations from a re-analysis of the deposited data

Results flagged for a closer look

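In 418 sets of 6 libraries, 34 had 1 library far from the other 5 by Dixon's test at the 95% level, and chance alone gives about 1 in 20 sets. HPF high performer 2 accounted for 14 of them. It was the highest HPF library for Ttr (151267 normalized counts), Enpp2 (64093), Slc17a6 (3954), Htr2c, the serotonin receptor of choroid plexus and many subcortical neurons (3084), Tcf7l2 (2984), Chrna4 (1557), Grm4 (978.7), Foxp2 (807.5), Sfrp1, a secreted Wnt antagonist (696.7), Cbln2 (691.4), Adra1b (285.3), Gbx2 (187.6) and Trhr2 (40.96), and the lowest for Lgr6 (273.3). Markers of choroid plexus and thalamus were among these genes. The part of neighbouring tissue in them was not tested.

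HPF high performer 3 was the highest HPF library for mt-Nd1 (489850), Flt1, a receptor of endothelial cells (3340), and Grm3 (2572), and the lowest for Csf2rb2, a cytokine receptor subunit (60.5), and Nmb (47.04). HPF low performer 2 was the lowest for Stxbp6 (9393), Jun (6080), Lrrtm3 (581.5) and Lnp1 (55.1). HPF low performer 1 was the lowest for Pla2g2f (95.66). Each of these genes kept its call when that library was left out.

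Among PFC libraries, low performer 2 was the highest for Ntsr1 (1061) and Csf2rb2 (67.59) and the lowest for Garnl3 (7184) and Gabrg3 (2072). High performer 3 was the highest for Vip (3500) and Fibcd1 (416.6) and the lowest for Plk5 (164.6). Low performer 1 was the highest for Chrm1 (12957) and the lowest for Ighg2c (90.17), and high performer 1 was the lowest for Npy1r (671.1).

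The tissue difference itself differed between performance groups for 20 named genes, by the interaction test in limma. Given as the difference in high minus that in low performers, the values of hippocampal markers were -3.04 for Iyd, -2.18 for Bok, -1.69 for Nectin3, 1.93 for Fibcd1 and 1.76 for Mpped1, and those of transcription factors 1.83 for Meis2 and 0.61 for Bcl11b. For adhesion, guidance and receptor genes they were 0.89 for Efna5, 0.94 for Efnb2, 0.94 for Flrt1, -0.78 for Epha4, -0.78 for Dkk3 and -0.64 for Cacng8. For mitochondrial, housekeeping and other genes they were 1.09 for mt-Nd6, 1.11 for mt-Nd1, -1.59 for Atp5e, -1.76 for Rpl22l1, 1.18 for Sdc3, -0.92 for Arpc4 and -1.72 for Pgam1-ps2. Adjusted p-values ran from 0.00104 for Rpl22l1 and Sdc3 to 0.0492 for Meis2. In all the interaction passed for 1174 genes, and for 3 without the 4 libraries high in Ttr.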

How the results depend on the processing

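The count of 8148 genes that passed lay between 6113 and 9147 under all alternatives but 1: in high performers alone 5411 genes passed and 2419 were higher in HPF. Leaving out 1 library at a time gave 7327 to 8318 genes, 3493 to 4063 higher and 3834 to 4255 lower, and 2360 to 2514 of at least 2-fold, 1092 to 1212 higher and 1264 to 1377 lower. It gave 4330 to 6237 in high performers, 5739 to 6955 in low performers and 380 to 1234 for the interaction. Without the 4 libraries high in Ttr, an alternative chosen after seeing the data, 4482 genes passed in low performers and 3 for the interaction. The interaction passed for 780 genes with no filter on low values and for 611 without the mean-variance trend. The cause was not tested.

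With the name number as a random block (consensus correlation 0.4625) 9147 genes passed, 8330 in high performers, 6865 in low performers and 2165 for the interaction. In the paired fit of the 3 same-numbered high performers 7720 passed. With the replicate number as a block, which does not match the name numbers, 7887 passed and 886 for the interaction. Of the named genes, the random block changed the calls of Enpp2 and Slc17a6 only.

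Of 209 named genes 203 passed, and 191 of those kept their direction and call in each alternative that held both performance groups. Directions turned in high performers alone and in their paired fit for Cspg4 (0.0097), Flt1 (0.11), mt-Nd6 (0.0763), mt-Nd1 (0.15), Atp5e (-0.24), Sdc3 (0.0676), Arpc4 (-0.0087), Pgam1-ps2 (-0.49) and Ttr (1.32). In low performers alone they turned for Rarres2 (-0.12) and Tcf7l2 (-0.50). Ttr, which did not pass over 12 libraries (-0.89 ± 1.28), ran from -1.64 to 0.17 when 1 library was left out, positive only without PFC high performer 1, and was positive without the 4 libraries (0.92). Depth was lower in all PFC libraries, so a gene listed at 0 in PFC has the weaker limit.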

Other observations

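Some genes had very large differences between single libraries of 1 tissue. With a mean of at least 500 normalized counts and a log2 difference between tissues of at least 2 in size, 9 genes did not pass, a rule chosen after the values were seen. Of these, 8 are annotated as pseudogenes, which share sequence with their parent genes. Gm13341, on chromosome 2, was at 310121 and 412603 in HPF high performers 1 and 3 and at 148 in HPF high performer 2. In PFC it was at 238900 and 243542 in high performers 3 and 2 and at 127 in high performer 1. The high libraries carry the name numbers 165 and 88 in both tissues, and the low ones carry 44. In HPF low performers it was at 208472, 531 and 137, and in PFC low performers at 79.8, 90.0 and 112.

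Other members of the set had other patterns over the same name numbers. Gm13394, also on chromosome 2, was at 3240 and 4423 in the libraries numbered 44 and at 2.5 to 10.3 in those numbered 88 and 165. Gm3272, on chromosome 8, was at 4475 and 6979 in the libraries numbered 165, at 4752 and 6849 in those numbered 44, and at 12.3 and 32.4 in those numbered 88. Values of the same number were thus alike in both tissues for these 3 genes. Gm45234, on chromosome 6, was the only member of the 9 annotated as protein-coding, with 3904, 2626 and 3780 in PFC low performers and 0 to 542 in the other 9 libraries.

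Differences of at least 2-fold were uneven across classes of genes. Of 887 processed pseudogenes tested, 103 were higher in HPF and 17 were higher in PFC, while of 15083 protein-coding genes 816 were higher in HPF and 1108 in PFC. Long intergenic RNAs differed in either direction for 23.8% of 513 genes, antisense genes for 19.4% of 567 and protein-coding genes for 12.8%. HPF libraries were deeper, at 76705451 to 88633852 estimated reads against 41156227 to 48838302, and the part of depth in these counts was not tested.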
